A study of Mus musculus with 10 samples.

Results

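The transcriptome of the whisker barrel field of the mouse primary somatosensory cortex (S1BF) was described at postnatal day 17 in the Loxp group, which comprised 4 of the 10 samples of the series. These 4 samples, Loxp 1 to Loxp 4, were chosen by their label alone, and all 52636 genes of the deposited table were kept. The mice were of the C57BL/6 strain and carried the floxed Rxra allele Rxratm1Krc/J. Rxra encodes the retinoid X receptor alpha. The series title names the Nex-cre driver for the other genotypes and not for Loxp, so that the group is the state of the tissue with a floxed gene and no Cre. Total RNA was extracted with Trizol from frozen tissue, and libraries were made with a NEBNext Ultra RNA kit. The labels give no sex and do not say whether each sample is its own animal or a pool, so every spread below is one between these 4 samples, which may be partly technical. No genotypes are compared.

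The barrel field maps the facial whiskers onto columns of cortical neurons that receive thalamic input, and at this age its synapses are still being refined by experience while myelin is being laid down. Its RNA comes mainly from excitatory neurons that use glutamate, with smaller contributions from inhibitory interneurons, astrocytes, oligodendrocytes, microglia and vessels. Many of its proteins belong to families of paralogs, which are related genes from a shared ancestor, or are assembled from subunits encoded by different genes. Which member a tissue transcribes most sets, in part, which channels, receptors and enzymes it can build. Levels are given as FPKM, fragments scaled to gene length and to library size, which can be set side by side between genes because they are divided by length. In a bulk sample, fewer cells of a type and less RNA per cell cannot be told apart.

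Of the lists that check the tissue label, all 8 markers of excitatory cortical neurons reached 1 FPKM, led by Nrgn, Slc17a7 and Camk2a. Of 8 markers of choroid plexus, the tissue that makes cerebrospinal fluid, 1 did. Of the lists for neighbouring regions, 8 of 8 striatal markers reached it, at means of 4.68 to 111 FPKM, as did 4 of 6 thalamic and 4 of 6 hippocampal ones. Over the whole table, 11806 of 21896 protein-coding genes reached 1 FPKM, so reaching it does not by itself mark a region. Total counts were 20920228, 20485199, 26086337 and 25163805 in Loxp 1 to 4. Libraries correlated with r = 0.966 to 0.973 across genes, a description in which genes are not independent replicates. The median gene at 1 FPKM or more varied between libraries by 10.96% beyond counting error (coefficient of variation). Some libraries stood apart. Loxp 4 was nearly free of haemoglobin transcripts and had the lowest Neurod6, a gene of excitatory neurons into which Nex-cre is inserted (30.8, 25.7, 28.5 and 16.2 FPKM in Loxp 1 to 4). Loxp 2 was lowest in all 8 genes of a striatal list. Loxp 1 was shifted toward short genes, with those under 1500 bases higher by 0.21 (log2) than the mean of the libraries. Loxp 3 alone lacked Xist, the RNA that silences an X chromosome in females (20.8, 33.8, 0.013 and 29.0 FPKM), and alone had a Y-linked transcript, Ddx3y, above 1 FPKM (0, 0.018, 8.12 and 0.061 FPKM).

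A mean of at least 1 FPKM was reached by 13418 genes, of which 11806 were protein-coding, and 12456 of the genes reached it in every library. At least 10 FPKM was reached by 4923 genes, 100 FPKM by 386 and 1000 FPKM by 14. Another 23801 genes were listed at 0 in all 4 libraries. Expression was concentrated: the 10 highest genes held 10.3% ± 0.98 of all FPKM, the 100 highest 25.5% ± 0.52 and the 1000 highest 56.2% ± 0.85 (SD, n = 4).

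Nrgn was the highest nuclear protein-coding gene (ENSMUSG00000053310, chr9:37544492-37552904, GRCm38). It encodes neurogranin, a small protein of dendrites and spines that binds calmodulin without calcium. Its level was 2731, 2273, 2568 and 2542 FPKM in Loxp 1 to 4, a mean of 2528 ± 190.04 (SD, n = 4). Next was Selenow, which encodes a small selenoprotein, at 2075, 1352, 1701 and 1606 FPKM. Cpe, the carboxypeptidase that trims neuropeptides, followed at 1324, 1011, 1139.7 and 1083 FPKM. Loxp 1 was highest and Loxp 2 lowest for all 3 of these genes, but the lowest value of Nrgn was still above the highest of Selenow, so their order held in every library.

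The other genes among the 30 highest fell into a few kinds. Energy metabolism was represented by Cox6a1 (1074 ± 156 FPKM) and Cox8a (780.5 ± 77.1), nuclear subunits of cytochrome c oxidase, and by the creatine kinase Ckb (487 ± 64.3). The calmodulin genes Calm3 and Calm2 were there. So were Eef1a2 (704 ± 142), the elongation factor of neurons and muscle, and the ferritin heavy chain Fth1 (946 ± 124), which stores iron. Glial transcripts were represented by Apoe (881 ± 99.9), the lipid carrier of astrocytes, and by the myelin gene Mbp (509 ± 48.2). App (605 ± 77.2) and its relative Aplp1 (505 ± 58.0), whose proteins are membrane-bound and cleaved by secretases, were also among them. The 2 with the least spread were Camk2n1, an inhibitor of CaM kinase II, and the astrocytic secreted protein gene Sparcl1. Camk2n1 stood at 518, 514, 495 and 512 FPKM, a coefficient of variation of 2.03%, and Sparcl1 at 534, 525, 531 and 497 FPKM.

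**Figure D1:**
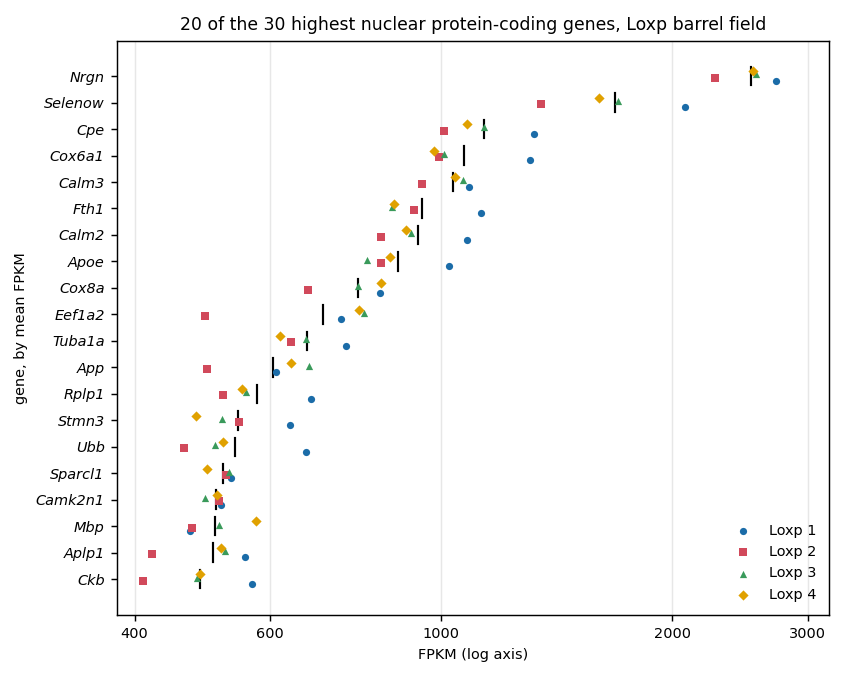
FPKM (log axis) of 20 of the 30 nuclear protein-coding genes with the highest mean, 1 point per Loxp library and a black bar at the mean. Nrgn lies apart from the rest at 2273 to 2731 FPKM, and the points of Loxp 1 tend to lie on the right and those of Loxp 2 on the left.

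Loxp 1 was the highest library for 22 of these 30 genes and Loxp 2 the lowest for 20, where over all 13418 genes at 1 FPKM or more the shares were 32.3% and 29.1%. Of the 30 genes, 8 had an exon length under 1500 bases, and Loxp 1 was highest in 7 of those 8. The part of length in this lean was not tested. Of the 30, 21 were among the 30 highest in each library taken alone. Membership followed the choice of length. Dividing the counts by the principal annotated transcript, in place of all exons of a gene merged, left 17 of the 30 in place. Mbp then led at 6726 FPKM, as its merged exons span 8469 bases and its principal transcript 638. The counts divided were still those of all merged exons. By the longest transcript Mbp had 895 FPKM, below Nrgn at 2534. Snap25, a membrane fusion protein of synapses, went from 229 to 735 FPKM by the principal transcript, and to 319 by the longest.

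The mitochondrial genome supplied 9.94% ± 1.21 of all FPKM (SD, n = 4) but 3.17% of counts. It encodes subunits of the respiratory chain. Mt-Co1, the catalytic subunit of cytochrome c oxidase, was the highest gene of all at 5874, 7517, 6298 and 6933 FPKM. Mt-Cytb, cytochrome b, stood at 4382 ± 342 FPKM and mt-Nd1, a subunit of complex I, at 3557 ± 349. Loxp 2 was highest for 8 of the 13 mitochondrial protein-coding genes. The subunits of 1 enzyme were listed at far from equal levels: mt-Co2 had 77.3 ± 17.1 FPKM and mt-Co3 29.1 ± 6.64, both cytochrome c oxidase subunits like mt-Co1. Both of these genes, and mt-Atp6 (58.7 ± 15.9), mt-Nd3 (23.8 ± 3.47), mt-Nd4l (20.2 ± 9.42) and mt-Nd4, have a near-identical copy in the nuclear genome (98% identity or more across 50% or more of the gene). Of those 6 genes, mt-Nd4 alone was high, at 1610.4 ± 201 FPKM. Mt-Atp8 was low as well at 5.57 ± 2.85 FPKM, and no such copy of it was found among annotated transcripts. The search did not cover the rest of the genome, so it cannot show that mt-Atp8 has no nuclear copy. Reads that match a gene and its copy equally well can be lost or split in counting, so the low values are uncertain, and the part of the copies was not tested.

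For 86 families of paralogs or subunits, holding 385 genes, the levels of the members were set side by side. Of the members, 343 reached 1 FPKM, 32 lay between 0 and 1 and 10 were listed at 0. Counts of members at 1 FPKM stand beside 11806 of all 21896 protein-coding genes. The highest member held a median of 60.4% of its family's summed FPKM. It was above the second member in each of the 4 libraries in 77 families. By the means it was at least 2 times the second in 45 and at least 10 times in 11. In the other 9 families the order of the leading pair changed between libraries. Among 257 pairs of neighbours in the order of levels, with the lower at 1 FPKM or more, 218 kept their order in every library. The leading member was picked on these same values, so the ratios are descriptions and carry no test.

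Calm2 and Calm3 are separate genes for calmodulin, the calcium sensor that Nrgn binds. Their coding sequences translate to 1 and the same protein, although 78 of 447 coding bases differ between them, 74 of these at the third base of a codon. The first 120 coding bases of the GENCODE M21 transcripts are shown because they make clear how reads of the genes can be told apart, with capitals at the 18 positions where they differ. The genes lie at chr17:87433412-87446935 (Calm2) and chr7:16915379-16924114 (Calm3) of GRCm38, both on the minus strand.
Calm2: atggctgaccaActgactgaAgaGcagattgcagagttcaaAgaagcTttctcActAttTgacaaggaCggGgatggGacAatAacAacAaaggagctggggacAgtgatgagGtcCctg
Calm3: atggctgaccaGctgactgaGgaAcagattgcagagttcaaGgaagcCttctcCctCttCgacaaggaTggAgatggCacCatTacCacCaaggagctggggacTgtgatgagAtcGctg
Over the whole coding sequence they shared 369 of the 447 bases, and neither transcript had a copy at 98% identity in another gene.

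Both genes were transcribed at high level. Calm3 had 1089 FPKM in Loxp 1, 946 in Loxp 2, 1067 in Loxp 3 and 1044 in Loxp 4. Calm2 had 1083, 837, 916 and 902 FPKM. Calm3 was above Calm2 in 4 of 4 libraries, but by a factor of 1.11 ± 0.074 (SD, n = 4) only. When the principal transcript set the length, the ratio was 0.97 ± 0.064, with Calm3 higher in 2 of 4 libraries. Loxp 2 was the lowest library and Loxp 1 the highest for both. The ratio of Nrgn to Calm3 varied little, 2.44 ± 0.049 over the 4 libraries.

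Calmodulin acts on some kinases and phosphatases, among them CaM kinase II and calcineurin. In both families the highest member was above the second in 4 of 4 libraries. CaM kinase II, an abundant enzyme of the postsynaptic density, was led by Camk2a at 339, 402, 446 and 452 FPKM, with Camk2b at 113, 113, 108 and 111 FPKM. The ratio of Camk2a to Camk2b was 3.69 ± 0.53, lowest in Loxp 1, where Camk2a was low and Camk2b was not. Camk2g followed at 51.6 FPKM and Camk2d at 2.81. By the deposited FPKM, the kinase inhibitor gene Camk2n1 stood above Camk2a in every library. By the principal transcript, the mean of Camk2n1 was below that of Camk2a (512 and 617 FPKM). Camk2n1 was 4.03 times above its paralog Camk2n2 (126 FPKM) by the means. Calcineurin, the calcium-dependent phosphatase, was led by the catalytic subunit gene Ppp3ca (119 ± 7.20 FPKM), 2.69 ± 0.27 times Ppp3cb. In a further phosphatase family, the protein phosphatase 1 catalytic subunits, Ppp1ca had 153 FPKM and Ppp1cc 37.8.

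Among the other signalling families, those of the 14-3-3 adaptors and the G protein alpha subunits were more even by the deposited FPKM. All 7 genes of the 14-3-3 adaptors, which bind phosphorylated proteins, reached 1 FPKM; Ywhah led with 338 FPKM and 26.4% of the family, and Sfn was lowest with 1.30. All 11 genes of G protein alpha subunits measured reached 1 FPKM as well. Gnao1, the most abundant G protein of brain, had 70.2, 78.8, 77.0 and 68.8 FPKM, and Gnai1, which couples inhibitory receptors, had 74.4, 73.4, 69.9 and 66.5. The values overlap, and Gnao1 was above Gnai1 in 3 of 4 libraries. By the principal transcript Gnao1 was 1.72 ± 0.098 above Gnai1 on the log2 scale, in 4 of 4 libraries. Gnas, the subunit that stimulates adenylyl cyclase, was listed at 15.9 ± 2.24 FPKM, and 21.97% of its exon bases lie in exons of other genes, so its level is uncertain.

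Transmitter release was dominated by single members of most families, with the leader at least 2 times the second in 8 of 11. Slc17a7, the vesicular glutamate transporter VGLUT1, had 419.9, 391, 458 and 439 FPKM. Slc17a6 (VGLUT2), the transporter of thalamic neurons that project to cortex, had 3.66, 5.31, 3.56 and 4.34 FPKM. Slc17a7 held 98.6% ± 0.27 of its family. Loxp 2 had the lowest Slc17a7 and the highest Slc17a6, and their ratio was 104 ± 23.5. Slc17a8 (VGLUT3) had 1.72 ± 0.14 FPKM.

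Of the fusion proteins of synaptic vesicles, Vamp2, the vesicle SNARE, had 303, 315, 297 and 273 FPKM and held 84.4% of its family. Snap25, its partner on the plasma membrane, had 227, 195, 246 and 247 FPKM, and was 2.06 ± 0.20 times Snap47. Stx1a, a syntaxin of the plasma membrane, stood at 209.7 FPKM. Rab3a, a vesicle GTPase, had 260.04 FPKM against 23.7 for Rab3c. Of the complexins, which clamp fusion, Cplx1 had 431, 299.6, 504 and 504 FPKM and Cplx2 had 188, 204, 215 and 209. Cplx1 led in every library, though its value in Loxp 2 was 1.68 times below that in Loxp 3 while Cplx2 moved by 1.14 times. All 14 synaptotagmins measured reached 1 FPKM. The 2 highest, the calcium sensor gene Syt1 (165 ± 14.8 FPKM) and Syt11 (152 ± 8.21), were in this order in 3 of 4 libraries.

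Glutamate receptors showed an uneven spread of subunits. AMPA receptors carry most fast excitation, and the subunit of Gria2 limits their calcium entry. Gria2 had 36.2, 41.7, 38.8 and 45.3 FPKM and Gria1 had 39.4, 35.6, 40.5 and 36.7. Gria2 was the higher in Loxp 2 and Loxp 4 and Gria1 in Loxp 1 and Loxp 3, so these genes had no fixed order, with a ratio of 1.07 ± 0.16. By the principal transcript the ratio was 1.43 ± 0.21 with Gria2 higher in 4 of 4 libraries. Gria3 (23.5 ± 1.77 FPKM) and Gria4 (16.3 ± 1.86) were below both in every library. Of the auxiliary TARP subunits, which traffic AMPA receptors, all 6 measured reached 1 FPKM, and Cacng7 (91.2 FPKM) was above Cacng3 (57.1) in 4 of 4 libraries.

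NMDA receptors need the obligatory subunit of Grin1, which had 65.9, 50.3, 65.4 and 74.1 FPKM. The partner Grin2b, which prevails early in development, had 15.7, 22.2, 20.6 and 19.8 FPKM. Grin2a, which gains weight as cortex matures, had 7.16, 9.96, 9.12 and 11.5 FPKM. Grin2b was 2.10 ± 0.26 times Grin2a, in the same order in 4 of 4 libraries, and 1.77 ± 0.22 times by the principal transcript. Grin2c stood between them at 15.2 ± 1.13 FPKM, and Grin3b was at 0.11. Kainate receptors were led by Grik5 (87.8 FPKM), an auxiliary subunit that cannot form a channel alone, and Grik3 followed with 14.2. Among the scaffolds that anchor these receptors, Dlg4, which encodes PSD-95, had 242, 255, 258 and 237 FPKM and held 71.7% ± 0.74 of its family.

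Inhibition is carried by GABA-A receptors, pentamers of alpha, beta and gamma or delta subunits. Of the alpha subunits, Gabra3 was at 21.9 ± 1.45 FPKM, and Gabra2, an alpha subunit prominent in immature cortex, was at 6.08 ± 0.84. Gabra6, a subunit of cerebellar granule cells, was at 0.0048 FPKM. Gabrb2 (17.9 FPKM) varied by 2.13 times, with 10.5 in Loxp 1 and 18.4, 22.5 and 20.2 in the rest. Gabrd, the subunit of receptors outside synapses, had 31.6 ± 2.93 FPKM. Of the enzymes that make GABA, Gad1 had 34.3, 27.5, 38.7 and 41.1 FPKM and Gad2 had 23.1, 23.8, 25.1 and 23.1. Gad2 was nearly level over the libraries while Gad1 was lowest in Loxp 2.

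The effect of GABA depends on chloride transport. Slc12a5 encodes KCC2, which exports chloride from mature neurons, and had 119, 104, 139 and 139.8 FPKM. Slc12a2 encodes NKCC1, which imports chloride, and had 12.7, 12.4, 14.1 and 13.8 FPKM. The ratio of Slc12a5 to Slc12a2 was 9.41 ± 0.77, and 11.6 ± 0.95 by the principal transcript.

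Voltage-gated channels fire and shape the action potential. The pore-forming sodium channel genes Scn8a, which acts at the initial segment of the axon, and Scn2a had 23.3 ± 4.33 and 22.2 ± 2.14 FPKM. Scn8a was higher in 2 of 4 libraries. Kv3 potassium channels, which let fast-spiking neurons repolarise quickly, included Kcnc4 at 35.5 ± 2.82 FPKM. Kcnc1 had 31.0 ± 7.01 FPKM, and 92.8 by the principal transcript, which would place it first. Hcn2, a channel of the hyperpolarisation-activated current, had 45.0 FPKM. In these excitability families, 13 of 43 members at 1 FPKM or more differed by at least 1.5 times between their highest and lowest library, against 21.8% of all genes and 16.6% of all family members at that level.

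**Figure D2:**
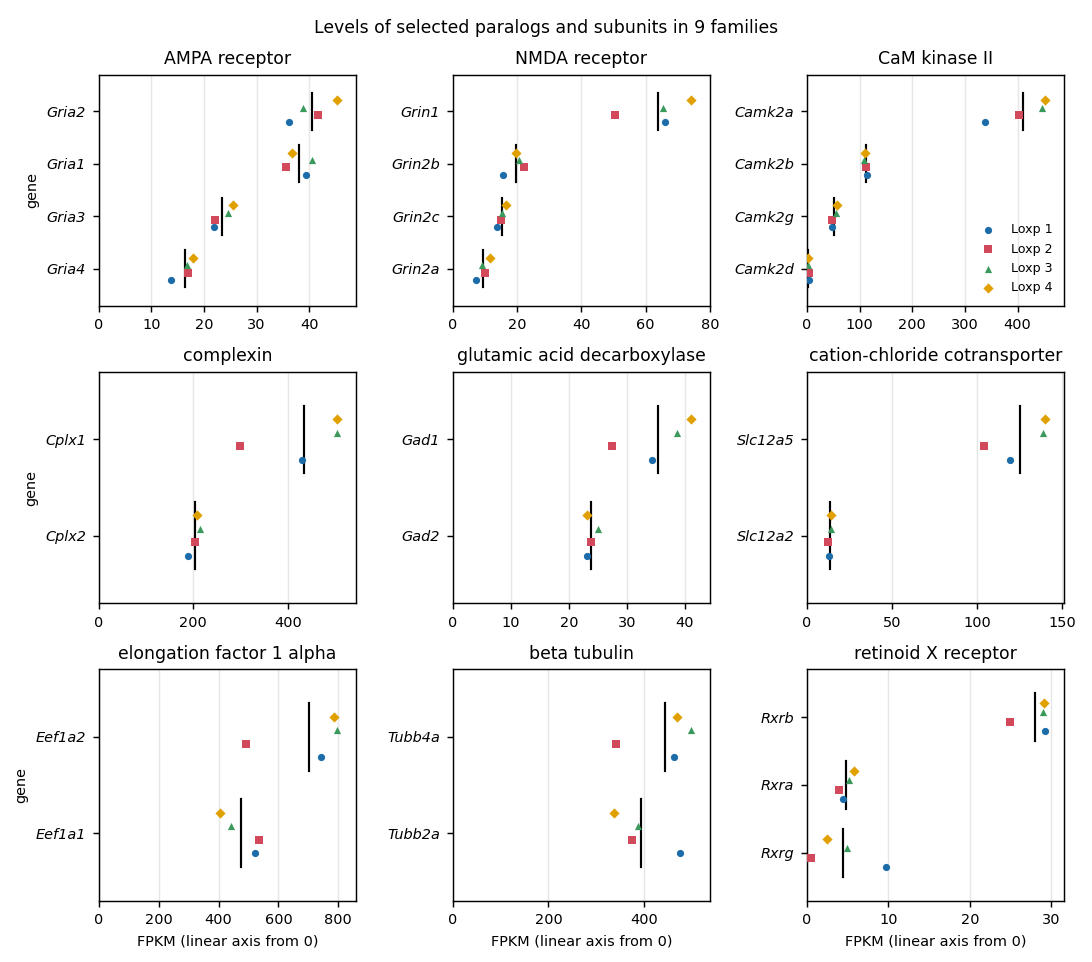
FPKM on linear axes from 0 for selected members of 9 families, 1 point per Loxp library and a black bar at the mean. The points of Gria1 and Gria2 overlap, while Grin1, Slc12a5 and Rxrb lie clear of their paralogs, and Rxrg ranges from 0.50 to 9.65 FPKM.

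Families of metabolism held their leading order in 9 of 9 cases. Hk1, the hexokinase of brain, had 57.6, 45.8, 60.3 and 56.5 FPKM and held 97.5% of its family, while Hk2 had 0.68. Pfkm, a phosphofructokinase, had 158 FPKM against 26.8 for Pfkl. Eno2, the neuronal enolase, had 175, 137, 173 and 175 FPKM and was 1.34 ± 0.12 times Eno1. By the principal transcript Eno1 was above Eno2 in every library. Mt3, the metallothionein of brain, had 389.9, 271, 249 and 219 FPKM, and Mt1 had 217, 107, 147 and 164. Loxp 1 was highest for both.

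Of the structural genes, Tuba1a, the alpha tubulin of growing neurons, had 753, 639, 669 and 618 FPKM and held 67.0% of its family. Tuba1b (179 FPKM) and Tuba1c (9.25) are near-identical to it in sequence, so the split among these 3 is uncertain. Tubb4a, a beta tubulin of oligodendrocytes and neurons, had 464, 341, 499 and 469 FPKM, and Tubb2a had 476, 374, 388 and 337. Tubb4a was higher in 2 of 4 libraries. Stmn3, which destabilises microtubules, stood above Stmn1 by 1.88 ± 0.086 times, but by the principal transcript the ratio was 1.04 ± 0.047. In housekeeping families, Ubb held 86.8% of the ubiquitin genes' FPKM at 541 ± 89.2. Eef1a2 had 742, 493, 796 and 784 FPKM, and its paralog Eef1a1, which is replaced by it in neurons during development, had 522, 536, 442 and 406. Eef1a2 was the higher in 3 of 4 libraries and the lower in Loxp 2.

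Retinoid X receptors pair with retinoic acid, thyroid hormone and other nuclear receptors, and the floxed gene of these mice belongs to them. Rxrb was the highest, at 29.2, 24.9, 29.04 and 29.1 FPKM. Rxra had 4.45, 3.92, 5.12 and 5.81 FPKM, or 13.0% ± 2.17 of the family. Rxrb was 5.90 ± 0.71 times Rxra, in 4 of 4 libraries, and 7.45 ± 0.89 times by the principal transcript. Rxrg had 9.65, 0.50, 4.91 and 2.46 FPKM, so that it was above Rxra in Loxp 1 and below it in the others. Of the partners, the thyroid hormone receptor gene Thra (188, 167, 167 and 159.8 FPKM) was 31.5 ± 4.66 times Thrb, which had 4.98, 6.16, 5.80 and 4.92. All 3 retinoic acid receptors were low, with Rara at 4.25 ± 0.80 FPKM, Rarg at 2.15 and Rarb at 1.02. The liver X receptor Nr1h2 had 13.9 FPKM, and Ppard led the PPAR genes with 10.01.

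The gene length behind FPKM decided some of these orders. The deposited values matched the merged exons of the GENCODE M21 annotation to within 1% for 89.4% of the genes at 1 FPKM or more that could be compared. Fth1 and App were among those that did not match. The FPKM of Fth1 implied 869 bases against 3469 of merged exons, and those of App 3138 against 12996. By the principal transcript Fth1 had 550 FPKM in place of 946, and App 597 in place of 605. The merged exons of a protein-coding gene were a median of 1.33 times as long as its principal transcript. When the principal transcript set the length, the mean log2 ratio of 9 of the 86 leading pairs turned below 0. Of these, 8 had held in every library by the deposited FPKM, among them the microtubule-associated protein genes Map1a and Mapt. Map1a stood 0.98 ± 0.13 above Mapt on the log2 scale by the deposited FPKM, and 1.44 ± 0.13 below it (-1.44) by the principal transcript. By the longest transcript Map1a stayed 0.51 above Mapt. The opposite happened for Mef2c, a transcription factor of excitatory neurons: it was higher than Mef2d in 3 of 4 libraries by the deposited FPKM (52.3 and 46.8) and in 4 of 4 by the principal transcript (319 and 159). Pairs with a ratio of 4 times or more (2 on the log2 scale) kept their order under both lengths.

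**Figure D3:**
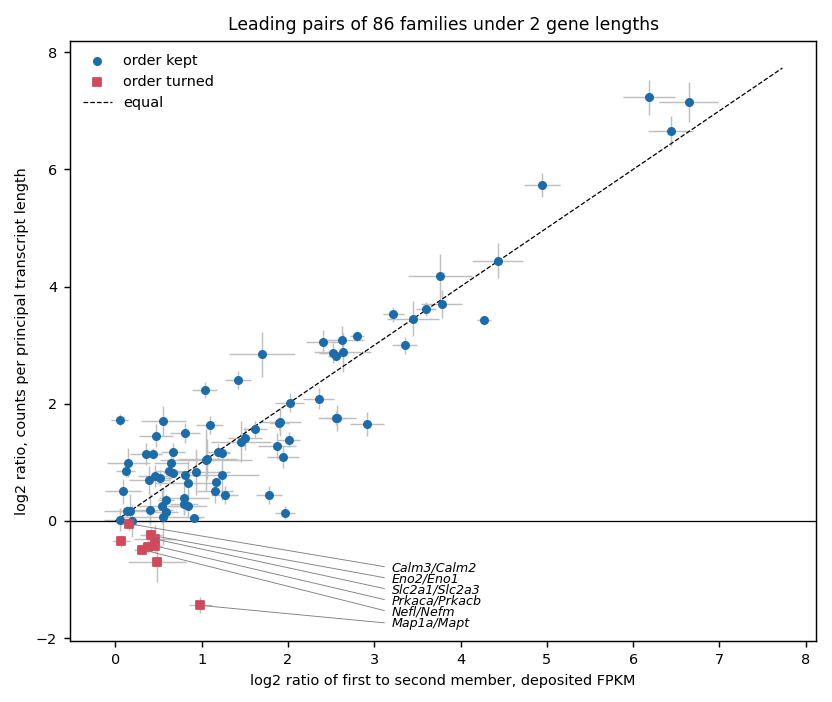
Log2 ratio of the highest to the second member of each of 86 families, by the deposited FPKM (x axis) and by counts divided by the length of the principal transcript (y axis), as means with SD bars over 4 libraries. The 9 red squares below 0 are the pairs whose order turned, 6 of them named, with Map1a and Mapt the farthest at -1.44.

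Between the highest and lowest library, 2921 genes, or 21.8% of those at 1 FPKM or more, differed by at least 1.5 times. Of the family members, 57 of 343 (16.6%) passed the same ratio, and of the 30 highest genes 2 did, Selenow and Eef1a2. Beside a list's count of genes that were lowest or highest in a library, the share over all genes serves as background. Over all genes, the lowest value fell in Loxp 1 for 27.5%, in Loxp 2 for 29.1%, in Loxp 3 for 18.4% and in Loxp 4 for 25.0%. The highest fell in Loxp 1 for 32.3%, in Loxp 2 for 24.5%, in Loxp 3 for 20.8% and in Loxp 4 for 22.4%.

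Among the marker lists with at least 4 genes at 1 FPKM, the red cell list had the widest spread of its mean log2 level over the libraries. Hbb-bs, an adult beta globin, had 127, 87.0, 67.2 and 2.59 FPKM, and Hba-a1, an alpha globin, had 103, 43.9, 55.2 and 1.03. Hbb-bt had 23.5, 15.98 and 10.3 FPKM in Loxp 1 to 3 and was listed at 0 in Loxp 4. Loxp 4 was lowest for 5 of 5 red cell genes, and all 5 passed 1.5 times. Hba-a1 and Hba-a2 are near-identical in sequence, and their summed level had the same order, with 115, 48.8, 59.8 and 1.15 FPKM.

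The list of striatal projection neurons was the next widest among these. Loxp 2 was lowest for 8 of its 8 genes, all past 1.5 times. The choroid plexus list, whose level rests on its 1 gene at 1 FPKM or more, ran from -1.61 in Loxp 4 to 1.11 in Loxp 2 (log2, relative to the mean of the libraries). Ppp1r1b, which encodes the dopamine-regulated phosphatase inhibitor DARPP-32, had 178, 34.0, 137 and 96.8 FPKM. Penk, the enkephalin precursor, had 64.5, 11.3, 49.1 and 24.6 FPKM. Drd2, a dopamine receptor, had 8.99, 0.65, 6.28 and 2.81 FPKM, and Adora2a, an adenosine receptor, had 15.8, 2.08, 13.9 and 5.59. Loxp 1 was highest for 6 of the 8. Ppp1r1b, Penk and Pde10a are made by some cortical neurons too. Rxrg took the same order over the libraries as Drd2 and Adora2a, and the sodium channel subunit gene Scn4b was likewise lowest in Loxp 2 (31.5, 5.396, 32.8 and 17.7 FPKM). The part of striatal RNA in the level of Rxrg or Scn4b was not tested.

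Immediate early genes, which neurons switch on within minutes of activity or stress, were mostly lowest in Loxp 2 as well, but highest in Loxp 4. Of 20 such genes, 15 were lowest in Loxp 2, 15 were highest in Loxp 4 and 15 passed 1.5 times. Arc, which acts at active synapses, had 146, 115, 168 and 272 FPKM. Nr4a1, an orphan nuclear receptor, had 96.7, 61.1, 101 and 175 FPKM, and Egr1, a zinc finger factor, had 133, 115, 152 and 165. The time and manner of tissue collection for each sample are not in the labels, and their part was not tested.

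The lists of glial cells and cortical layers stayed between -0.37 and 0.27 (log2) of their mean over the libraries, both ends being the list of layer 6 and subplate. Of 10 oligodendrocyte genes, 9 were highest in Loxp 4 and 7 lowest in Loxp 2. Mbp, the myelin basic protein gene, had 473, 475, 515 and 576 FPKM. Of 8 markers of layers 2 to 4, 6 were highest in Loxp 4 and 5 lowest in Loxp 1. The upper-layer marker Cux2 had 12.4, 17.8, 15.7 and 19.3 FPKM. The deep-layer lists took another order. Of 7 layer 5 markers, 4 were lowest in Loxp 4, where the list stood at -0.22, against 0.16 in Loxp 1. The layer 6 and subplate list stood at 0.27 in Loxp 1 and -0.37 in Loxp 2, and 5 of its 7 genes at 1 FPKM passed 1.5 times. Of 6 endothelial genes, 5 were highest in Loxp 2, led by Cldn5, a tight junction gene (54.9, 61.6, 45.3 and 45.3 FPKM). None of 8 microglial genes passed 1.5 times, and their means lay between 9.77 FPKM for Cx3cr1 and 41.9 for C1qa. Among interneuron genes the neuropeptide Sst was the highest at 529.7, 251, 401 and 395 FPKM, above Npy (232, 116, 177 and 201 FPKM), with Loxp 2 lowest for both. Of the thalamic list, Tcf7l2 and Lef1 stayed under 1 FPKM and the other 4 genes had means of 2.06 to 4.84 FPKM. Of the hippocampal list, Lct and Dsp stayed under 1 FPKM and the other 4 had means of 1.53 to 13.6 FPKM.

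**Figure D4:**
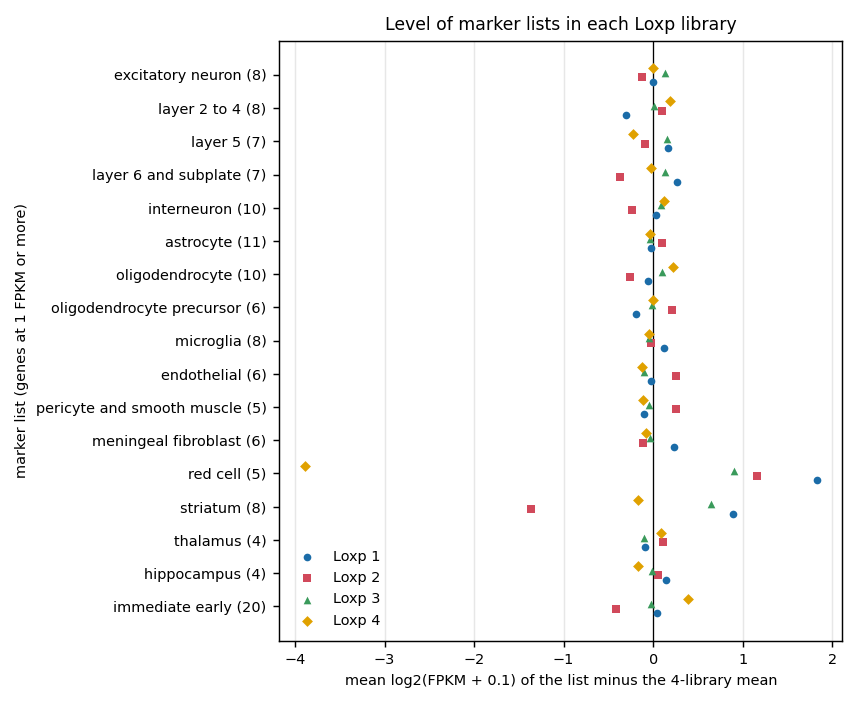
Mean log2(FPKM + 0.1) of the genes of each marker list at 1 FPKM or more, minus its mean over the 4 libraries (x axis), 1 point per Loxp library, for lists with at least 4 genes at 1 FPKM. The red cell list runs from -3.89 in Loxp 4 to 1.83 in Loxp 1 and the striatal list from -1.37 in Loxp 2 to 0.90 in Loxp 1, while the points of the other lists plotted lie between -0.41 and 0.39, both ends being the immediate early list in Loxp 2 and Loxp 4.

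Among 4657 named protein-coding genes at 10 FPKM or more, 380 (8.16%) differed by at least 1.5 times and 11 by at least 5 times. Beside the globins and genes of the striatal list, the 12 with the largest ratio held Syndig1l and Lrrc10b. Syndig1l, a gene of a synaptic membrane protein, had 25.7, 2.80, 23.4 and 12.2 FPKM, and Lrrc10b had 18.96, 2.97, 12.2 and 8.97. Both were lowest in Loxp 2 and took the same order over the libraries as Drd2 and Adora2a. The part of striatal RNA in their levels was not tested. Sumo2, whose product is attached to other proteins, split the libraries differently, with 5.97, 6.36, 43.8 and 33.8 FPKM. Btg2, an immediate early gene, was highest in Loxp 4 at 21.2 FPKM. Gapdh, a glycolytic enzyme often used as a reference for other genes, was listed at 4.72, 27.4, 42.4 and 22.5 FPKM. It has near-identical copies in 38 other genes, and the sum of Gapdh and its copies in the table still ran from 30.9 to 69.1 FPKM. The copies' part in its low and uneven level was not tested, and its level is uncertain. The chemokine gene Ccl21b, also with near-identical copies, had 2.14, 8.49, 14.4 and 19.02 FPKM, whereas the sum with its copies ran from 18.9 to 26.7.

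**Figure D5:**
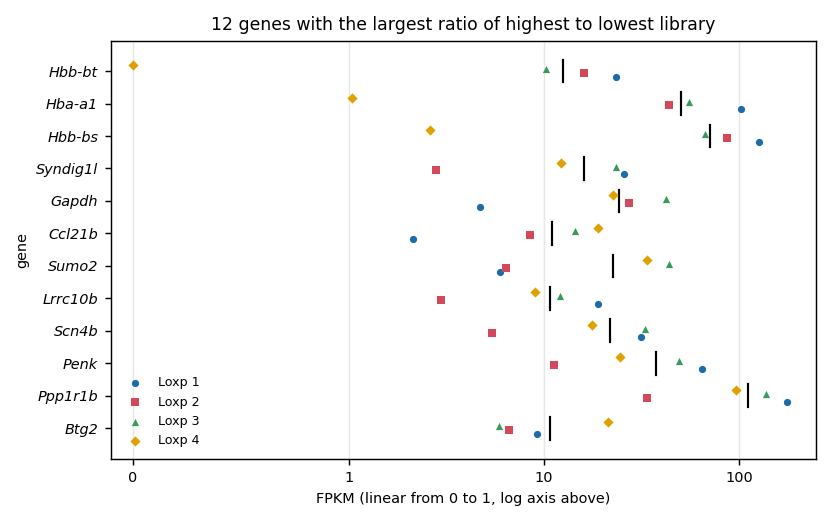
FPKM of the 12 protein-coding genes with the largest ratio of highest to lowest library among those at 10 FPKM or more (axis linear from 0 to 1 and logarithmic above), 1 point per Loxp library and a black bar at the mean. The 3 globins are lowest in Loxp 4, Syndig1l, Lrrc10b, Scn4b, Penk and Ppp1r1b in Loxp 2, and Gapdh, Ccl21b and Sumo2 in Loxp 1.

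At the other end, 8 genes at 10 FPKM or more had the lowest coefficients of variation. Poldip2, a polymerase-interacting protein, had 22.5, 22.8, 22.5 and 22.8 FPKM, a coefficient of variation of 0.69%. Zc3h13, of the RNA methylation complex, had 13.6, 13.6, 13.8 and 13.7 FPKM. Bcl2l2, a survival factor, had 25.7, 25.3, 25.6 and 25.3 FPKM. The others were the sulfotransferase Chst2, the transcription factor Yy1, the vesicle SNARE Vamp4, Dhdds and Dcun1d4, at 15.3 to 32.2 FPKM. These 8 were picked as the extremes of 4 values each, so their small spread is a description of these libraries.

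Near-identical copies in another gene, at 98% identity or more over at least 50% of the length, were found for 39 of 555 genes searched, among them 24 of the 385 family members and 3 of the 30 highest genes. The 3 were Tuba1a, Rplp1 and Ubb. Levels of these genes are uncertain to the extent that their reads could not be assigned.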

How the data were processed

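The authors counted reads on the mm10 build (GRCm38) using featureCounts 1.5.0-p3, per the submitters' processing notes, and deposited the raw count of each gene. The FPKM analysed here were also deposited by the authors. For the aligner, the annotation and the FPKM tool the entry is: not given in the sources used here. The ratio of counts to FPKM implies merged exon lengths for most genes. The 4 Loxp columns were used, with 20485199 to 26086337 counts per library; the other 6 samples of the series were not analysed here, as no genotypes were compared. Of 52636 gene IDs, 52489 were found in GENCODE M21, which gave gene types, coordinates, exon lengths, principal (APPRIS) transcripts and coding sequences.

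Values are means ± SD over the 4 libraries. Ratios of members printed with an SD were formed within each library. Those printed as times are plain quotients of FPKM. Those on the log2 scale used log2(FPKM + 0.1), a scale that understates ratios of low genes. The counts of families with a leader at least 2 or 10 times the second used the ratio of the means. An exact two-sided sign-flip test of 4 libraries cannot give a p below 0.125, and no p is printed. Biological variation is the coefficient of variation less its counting part, with the median corrected for 4 libraries, and was tested on simulated data. Near-identical copies were sought among the annotated GENCODE M21 transcripts with blastn 2.17.0 (98% identity, 50% coverage), so copies outside annotated transcripts would be missed. Scaling alternatives used edgeR 4.0.16 (TMM) and DESeq2 1.42.0 (size factors) in R 4.3.3, and all else Python 3.11.15. Chi-square values of 12.4 to 25.9 per gene between libraries showed no library deposited more than once. Depth limits low genes: a gene at 0 in a library may have been missed.

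The 86 families, 18 marker lists and the members to name were chosen with earlier results of these data known. The rule named the 30 nuclear protein-coding genes of highest mean, the mitochondrial protein-coding genes, the first and second member of each family and members under 1 FPKM, the 12 most and 8 least variable genes at 10 FPKM or more, and up to 4 genes per marker list. Lower-ranking family members, Gnas, Xist and Ddx3y fall outside the rule and were chosen with their values in view. The alternatives were other thresholds, pseudocounts and scalings, the longest or the principal transcript as length (the latter added after the values were seen), and each library left out in turn. Some results are not reported here.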

Additional observations from a re-analysis of the deposited data

Results flagged for a closer look

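In 9 of 139 values examined, 1 library lay far from the other 3 relative to the range of the group; chance alone does this for about 5% of groups of 4. Of the highest genes, the cytochrome c oxidase subunit gene Cox6a1 reached 1306 FPKM in Loxp 1 against 981 to 1011 in the others. The mitochondrial gene mt-Atp8 was at 9.84 FPKM in Loxp 1 against 3.95 to 4.29. Among leading family members, the neuronal enolase gene Eno2 was at 137 FPKM in Loxp 2, the synuclein gene Sncb at 187 in Loxp 2, and Rxrb at 24.9 in Loxp 2, each below the other libraries. The G protein beta subunit gene Gnb1 was at 139.98 FPKM in Loxp 4, below the others. Of the marker lists, measured as mean log2 level relative to the 4 libraries, the astrocyte list stood at 0.097 in Loxp 2 and the microglia list at 0.12 in Loxp 1, both above the rest. The red cell list stood at -3.89 in Loxp 4, below the rest.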

How the results depend on the processing

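No paired analysis was possible because a single group was described and no groups were compared. The number of genes at 1 FPKM or more (13418) became 20854 at a threshold of 0.1 FPKM and 7796 at 5 FPKM. The share of the 100 highest genes (25.5% of FPKM) became 17.1% by CPM (counts not divided by length) and 18.6% without mitochondrial genes. The number of genes that differed by at least 1.5 times (2921) became 9074 with no filter, 885 at a mean of 5 FPKM or more and 1010 at a ratio of 2; TMM and DESeq2 scaling gave 2921 and 2920. The median variation beyond counting (10.96%) ran from 9.28% without Loxp 1 to 12.06% without Loxp 3. By the longest transcript the log2 ratio of 6 leading pairs turned, among them to -0.34 for Nefl over Nefm, -0.24 for Eno2 over Eno1, -0.048 for Calm3 over Calm2, and -0.42 for Prkaca over Prkacb. By the principal transcript, added after the values were seen, it turned in 8, among them to -0.49 for Nefl over Nefm, -1.44 for Map1a over Mapt, -0.24 for Eno2 over Eno1, -0.31 for Slc2a1 over Slc2a3, -0.048 for Calm3 over Calm2, and -0.42 for Prkaca over Prkacb. These turns follow from the ratio of the lengths used. A further 54 of the 86 ratios moved by more than 1 SD under each of these lengths, and 9 did with a pseudocount of 1. With 1 library left out, 1 ratio moved by more than 1 SD and 343 did not.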
